A study of Mus musculus with 165 samples.

Results

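The centromere-proximal ends of the mouse autosomes were described across 4 chromatin states of a myeloid cell line, from its progenitors to activated neutrophils. An end was taken as the 25 kb bins of chromosomes 1 to 19 that start at 3 Mb or beyond and before 8 Mb on the genome build mm9. A bin was kept where it had a non-zero compartment score in all 4 tracks. This gave 3611 bins, or 90.3 Mb, of the 94800 autosomal bins and the 100644 bins compared with chromosome X included. The other 91189 bins of the same chromosomes served as the background.

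Mouse autosomes are acrocentric, so the centromere lies at the low-numbered tip of each chromosome and the long arm makes up nearly all of the assembled sequence. The centromere and the satellite repeats around it are packed as constitutive heterochromatin, and those of several chromosomes gather in chromocentres of the interphase nucleus. In Hi-C, loci of like activity contact each other more often, which splits chromosomes into compartment A (active, gene-rich) and compartment B (inactive, often at the nuclear lamina). The first principal component (PC1) of the contact matrix gives each bin a score, here called A above 0 and B below 0. The score has no unit.

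All cells were ECOMG cells, a GM-CSF-dependent line of C57BL/6 strain with the genotype label human E2A_ER_Pbx1b, wild type, so every group shares that fusion gene. Progenitors were undifferentiated cells (7 libraries pooled in 1 track). Untreated neutrophils were cells kept without β-estradiol for 5 days (8 libraries from 7 replicates pooled in 1 track). Activated neutrophils had received the calcium ionophore A23187 at 20 uM in the fast condition, in medium brought to 1 mM calcium, for 15 min or for 30 min (1 labelled sample each, with the number of libraries behind it not stated). The work aimed to learn how calcium signalling changes nuclear architecture. These cells come from 1 line made in culture, and compartment scores hold no expression, so the labelled cell types could not be checked against marker genes.

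Each group has 1 track and the number of reads behind it is unknown, so no difference has a replicate check and no p-value is given. The spread stated is that over 19 chromosomes, which are not replicates. Progenitor and untreated libraries were run on 1 instrument model and the activated ones on either of 2 other models, not said which, so treatment and sequencing batch cannot be told apart. The progenitor and untreated libraries are labelled as a re-analysis, and the activated samples are not. The labels do not say whether untreated and activated cells were grown and processed side by side. The untreated track is thus not known to be a matched control of the treatment. Time and replicate label also run together (replicate 2 at 15 min, replicate 1 at 30 min). PC1 was scaled to a mean of 0 and an SD of 1.000 on each chromosome, so a higher score at an end has to be offset elsewhere on that chromosome.

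Coverage was close to complete on most chromosomes. Of 3800 possible bins, 132 had a value in no track and 57 in some tracks but not all. Of the missing values, 56 were in the progenitor track, 24 in the untreated track, 30 at 15 min and 0 at 30 min. Chromosome 14 stood apart with 66 of 200 bins. Chromosomes 7, 17 and 19 had 179, 185 and 190, and the other 15 autosomes had 196 to 200.

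Taken over all ends, PC1 was close to the average of the chromosome arms. Its mean over the 3611 bins was 0.0195 in progenitors, 0.0837 in untreated cells, 0.0931 after 15 min and 0.103 after 30 min, against -0.000706, -0.00294, -0.00321 and -0.00302 in the other bins. Compartment A held 44.8% of the bins at the ends in progenitors, 45.8% in untreated cells, 51.9% after 15 min and 49.5% after 30 min. In the other bins these shares were 42.9%, 41.5%, 46.7% and 43.8%. The ends thus had the higher A share in all 4 tracks, by 1.89 to 5.72 percentage points. The order of the tracks differed: the A share fell from progenitors to untreated neutrophils in the other bins and was slightly higher at the ends.

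These averages hide a spread that is far wider than they are. The mean difference of an end from the rest of its chromosome in untreated cells was 0.0715 with an SD of 0.421 over the 19 chromosomes. It was above 0 on 10 chromosomes and below 0 on 9. The progenitor difference over all bins, 0.0203, turned to -0.0355 without chromosome 19 and to -0.00947 when the first 1 Mb was left out. With ends drawn out to 13 Mb the difference was negative in all 4 tracks. The window of 5 Mb therefore sets the direction.

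Within the ends, PC1 was not level. Bins starting at 4 to 5 Mb had the highest mean, 0.235 in progenitors, 0.318 in untreated cells, 0.351 after 15 min and 0.342 after 30 min. From there it fell step by step, and at 7 to 8 Mb it stood at -0.309, -0.307, -0.295 and -0.273. Of the bins at 4 to 5 Mb, 54.0% were in A in untreated cells, against 28.3% at 7 to 8 Mb. Between 8 and 13 Mb the untreated mean stayed between -0.247 and -0.147 and the A share between 30.2% and 36.9%. Chromosomes differed widely at every step, with an SD of 0.603 to 0.789 in untreated cells over the first 5 steps.

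**Figure D1:**
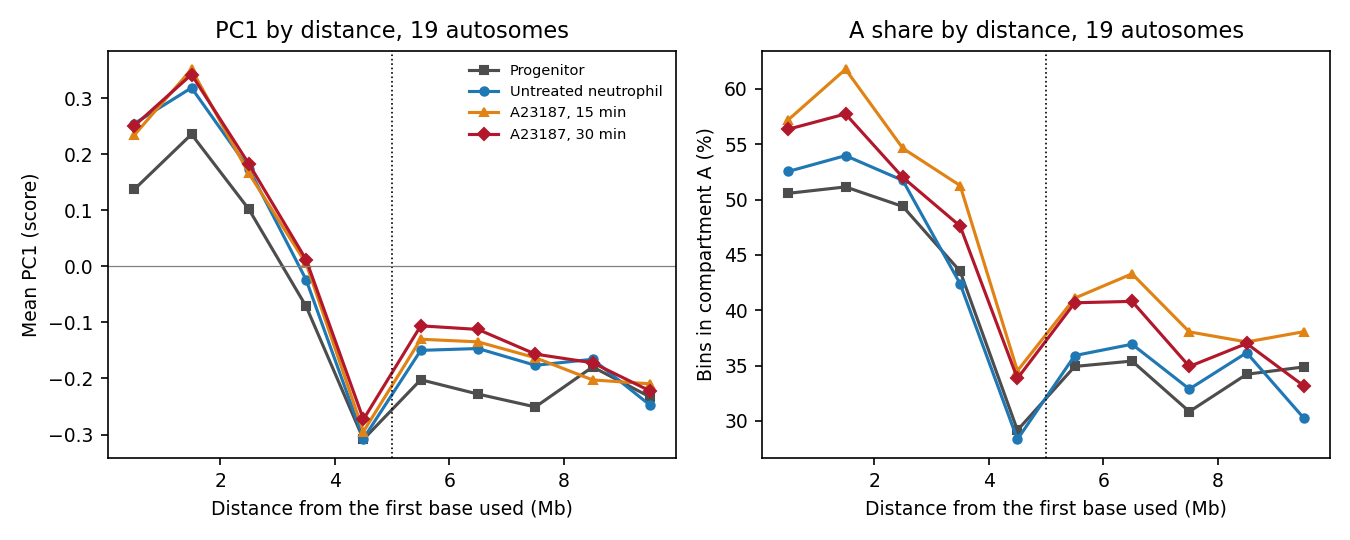
Mean PC1 (left, score without a unit) and percent of bins in compartment A (right) in 1 Mb steps, with the distance counted in Mb from position 3 Mb, for the 4 tracks (points: all bins of the 19 autosomes in a step; dotted line: the limit of the ends). Both measures peak in the second step in all 4 tracks. Mean PC1 is lowest in the fifth step in all 4, and the A share in 3 of them (at 30 min it is 33.8% there and 33.2% in the last step).

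The limit at 8 Mb did not fall on a step in the score. Over the last 250 kb inside it (177 bins) the untreated mean was -0.302, and over the first 250 kb outside (175 bins) it was -0.409. The same pair of values was -0.315 and -0.439 in progenitors, -0.277 and -0.362 at 15 min, and -0.269 and -0.365 at 30 min.

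The very first bins, nearest to the centromere, were mostly in B. In untreated neutrophils the first bin was in B on 16 of 19 chromosomes. It was in B on 14 in progenitors, 14 at 15 min and 16 at 30 min, and its compartment was the same in all 4 tracks on 16 chromosomes (14 in B and 2 in A). The first run of 1 compartment, A or B, counted from the first bin used, was mostly short. On chromosome 4 this B run took 400 kb in progenitors and 375 kb in untreated cells. The median length over the 19 chromosomes was 225 kb in progenitors, 175 kb in untreated cells, 175 kb after 15 min and 150 kb after 30 min.

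The end of chromosome 19 had the highest mean PC1, at 0.986 in progenitors, 1.08 in untreated cells, 0.956 after 15 min and 0.947 after 30 min. In untreated cells it ranked first of the 12 windows of 5 Mb on its chromosome. A single A domain of 4425 kb, from 3250001 to 7675000, filled most of it, with a score of 1.30 in the authors' deposited table.

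By the untreated value chromosome 18 came next, with end means of 0.548 in progenitors, 0.544 in untreated cells, 0.673 after 15 min and 0.840 after 30 min. Its A share went from 72.5% and 72.0% to 88.5% and 90.0% along the same order. Chromosome 10 had means of 0.282, 0.455, 0.595 and 0.475. Chromosome 11 had 0.572, 0.403, 0.492 and 0.573 and was second in progenitors, above chromosome 18. For chromosomes 10 and 18, both activated values lay above both others.

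At the low end of the order, chromosome 14 had -0.591 in progenitors, -0.556 in untreated cells, -0.556 after 15 min and -0.617 after 30 min, on 66 bins, none of them in A in any track. Chromosome 9 had -0.731, -0.519, -0.683 and -0.611, with 8.04%, 23.1%, 20.6% and 17.6% of its bins in A. Chromosome 3 had -0.484, -0.375, -0.482 and -0.492. On chromosomes 3 and 9, the untreated value was the highest of the 4.

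Between these extremes, the end of chromosome 13 varied most between tracks, with -0.481 in progenitors, -0.0827 in untreated cells, -0.0676 after 15 min and -0.298 after 30 min. Chromosome 5 had 0.0221, 0.153, 0.317 and 0.210, with an A share of 40.5%, 49.0%, 62.5% and 53.0%, so its progenitor value was the lowest. Chromosome 4 had 0.232, 0.146, 0.231 and 0.340, and chromosome 6 had 0.199, 0.145, 0.190 and 0.278, both lowest in untreated cells. Chromosome 2 had 0.0317, -0.0872, -0.0479 and -0.106, and was above zero in progenitors alone. Chromosome 15 had 0.192, 0.227, 0.284 and 0.298. On chromosomes 11, 14, 16 and 19 no bin of the end met the switch rule described below in any comparison.

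**Figure D2:**
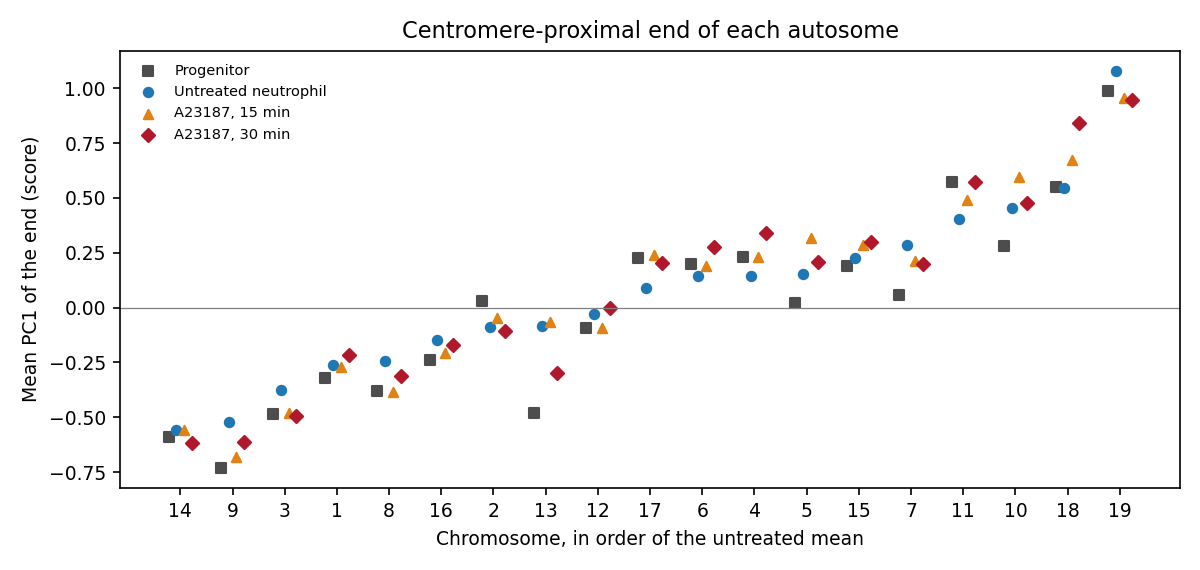
Mean PC1 (score without a unit) over the centromere-proximal end of each of 19 autosomes, in order of the untreated value, with 1 point per track. The order runs from chromosome 14 to chromosome 19, and the distance between chromosomes is much larger than that between tracks of 1 chromosome.

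The authors' domain lists, called on the untreated track, place 67 A domains and 79 B domains at least partly in the ends. A domains covered 44.7% of the bins there, B domains 53.3%, and 2.02% lay in neither. In the other bins these shares were 40.6%, 57.9% and 1.45%. Domains were more closely packed at the ends, with 7.42 A and 8.75 B domains per 10 Mb against 5.83 and 6.20 elsewhere, although a domain that crosses the 8 Mb limit counts in full, which raises the density of short windows. B domains at the ends had a median length of 425 kb against 525 kb elsewhere, and 21.5% of them against 30.5% reached 1 Mb. A domains had medians of 325 kb and 350 kb. The median score of B domains, in the authors' deposited table, was -0.524 at the ends and -0.626 elsewhere.

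The sign of a domain's mean in the other tracks was much the same as in untreated cells. Of the 79 B domains at the ends, 13 (16.5%) were above zero in progenitors, 18 (22.8%) at 15 min and 18 (22.8%) at 30 min, where 21.8%, 24.3% and 22.2% of those elsewhere were. Of the 67 A domains, 6 (8.96%) were below zero in progenitors, 2 (2.99%) at 15 min and 5 (7.46%) at 30 min, where 11.4%, 2.86% and 10.5% of those elsewhere were.

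Scores near zero were more common at the ends. In untreated cells 25.3% of the end bins had a PC1 within 0.5 of zero, against 18.7% of the other bins, and in progenitors 24.5% against 17.2%. PC1 crossed zero between neighbouring bins in 4.45% of the pairs at the ends and 3.70% elsewhere in untreated cells, and in 3.70% and 2.72% in progenitors. The local noise variance, taken from how far each bin lies from the average of its neighbours on both flanks, was 0.0232 at the ends and 0.0219 elsewhere in the untreated track. It was 0.0160 and 0.0128 in progenitors, 0.0134 and 0.0118 at 15 min, and 0.00683 and 0.00587 at 30 min. The distal ends of the same chromosomes shared these traits in untreated cells, with 21.4% of bins near zero, 4.59% of pairs crossing it and a noise variance of 0.0270. A bin near zero can change sign with a smaller change of score. The part of this in the switch counts below was not tested.

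From progenitors to untreated neutrophils, the mean PC1 of the ends rose, and their switches into and out of A were nearly balanced. The remaining bins had a net loss of A. A bin was called switched where PC1 changed sign, by no less than 0.5 root mean squares (RMS) of the starting track, over 2 or more adjoining bins. By this rule 89 end bins in 25 runs (2.46%) went from B to A, where the other bins gave 1.52% and all autosomal bins 1.55%. From A to B went 83 end bins in 17 runs (2.30%), against 3.27% of the other bins and 3.23% of all autosomal bins. With each chromosome of the other bins weighted as at the ends, the background shares were 1.48% and 3.23%. Chromosome 9 held 18 of the 89 end bins that joined A and 0 of the 83 that left it. Chromosome 4 held 28 of the 83 and 0 of the 89, so the small surplus at the ends turns on single chromosomes.

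Mean PC1 of the ends changed by 0.0641 and that of the other bins by -0.00223. PC1 rose in 66.5% of the end bins and also in 55.6% of the other bins. The mean of the end rose on 13 of 19 chromosomes, with a median of 0.0634 and a range of -0.168 to 0.398. By distance, the change was 0.117 at 3 to 4 Mb, 0.0829 at 4 to 5 Mb and 0.00136 at 7 to 8 Mb, with 15, 15 and 14 of 19 chromosomes rising. Beyond the ends it was 0.0813 at 9 to 10 Mb and 0.0742 at 10 to 11 Mb, so it did not fall steadily with distance. Chromosome 13 had the largest relative rise (0.416, from -0.481 to -0.0827), followed by chromosome 7 (0.235) and chromosome 9 (0.220). The largest relative falls were on chromosomes 11 (-0.176), 17 (-0.146) and 2 (-0.123). The relative change of all ends, 0.0664, kept its sign without any 1 chromosome (0.0460 to 0.0802).

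The longest stretch that entered A in differentiation was on chromosome 9, from 7225001 to 7550000 (325 kb). Its mean PC1 was -0.612 in progenitors, 0.582 in untreated cells, 0.565 after 15 min and 0.341 after 30 min, so it stood in A in all 3 neutrophil tracks. On chromosome 1, 6375001 to 6550000 had -0.361, 0.665, 0.455 and 0.206. On chromosome 13, 5350001 to 5500000 had -0.375, 0.315, 0.240 and 0.186. These stretches were chosen for B in progenitors and A in untreated cells. In the activated tracks, which the choice did not use, all 3 were above zero. By sign alone, end bins in B in progenitors and A in untreated cells were mostly so. Of these, 131 were in A at both times, 39 at 15 min only, 0 at 30 min only and 14 at neither. In the other bins the same counts were 1427, 889, 76 and 459. The untreated and activated tracks are closely correlated, so the signs in the activated tracks are no separate check.

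The longest stretch that left A was on chromosome 4, from 7200001 to 7775000 (575 kb), and matches an untreated B domain. Its mean PC1 was 0.819 in progenitors, -0.25 in untreated cells, -0.0538 after 15 min and 0.590 after 30 min. The next, also on chromosome 4, ran from 7950001 to 8200000 across the 8 Mb limit, with 0.756, -0.278, 0.133 and 0.314. Chromosome 6 had 5750001 to 5925000 at 0.607, -0.339, -0.0455 and 0.0950. These 3 were chosen for A in progenitors and B in untreated cells. In the activated tracks, which the choice did not use, all 3 were above zero at 30 min and 1 was at 15 min. Of all end bins with these 2 signs, 66 were in A at both times and 35 at 30 min only. A further 12 were in A at 15 min only and 33 at neither, so this is no separate check. In the other bins the same counts were 2178 at both times, 421 at 30 min only, 720 at 15 min only and 784 at neither. Chromosome 4 held 28 of the 83 bins that left A (33.7%), and without it the share was 1.61%.

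**Figure D3:**
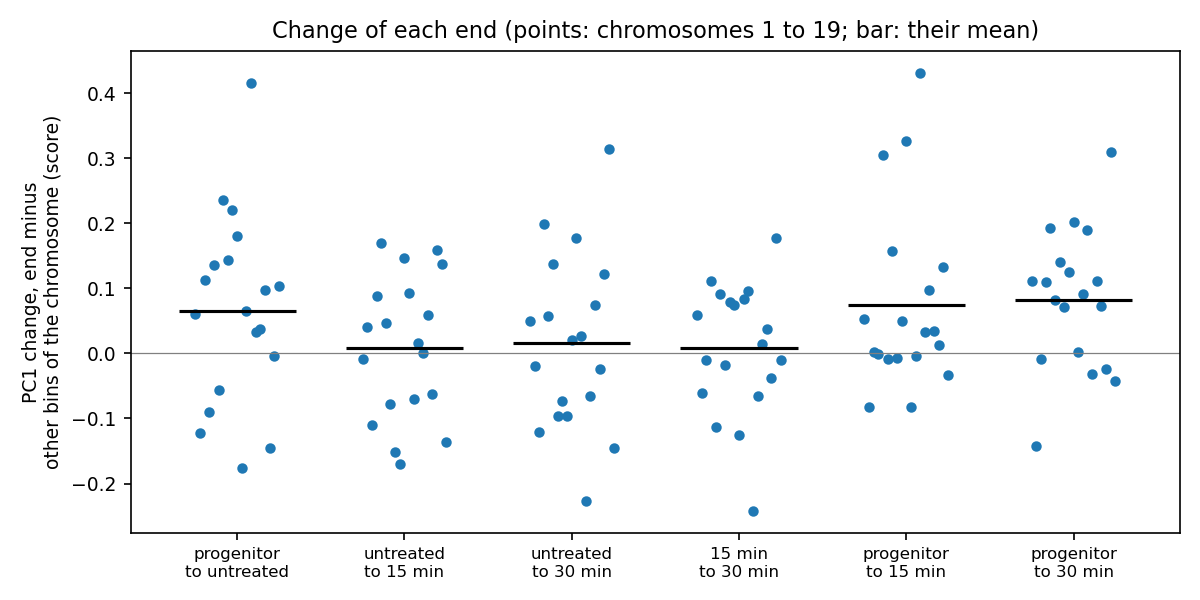
Change in mean PC1 (score without a unit) of each end minus that of the other bins of its chromosome, for 6 comparisons (points: 19 chromosomes; bar: their mean). The comparisons share tracks. The points lie on both sides of zero in every comparison, and the means of those that start from progenitors are furthest from it.

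After 15 min of A23187, switching into A was less frequent at the ends than on the rest of the autosomes. It took 55 end bins in 16 runs (1.52%), against 3.32% of the other bins and 3.25% of all autosomal bins. These bins lay on 7 chromosomes, 18 of them on chromosome 10, and the share without that chromosome was 1.08%. From A to B went 3 end bins in 1 run (0.0831%), beside 0.191% of the other bins and 0.187% of all. The balance of gains and losses at the ends rested on the scale, with 0.554% into A and 0.554% out of it on scores quantile-normalized to the untreated track, and 0% and 0.222% on scores centred on the chromosome median. With a minimum change of 0.25 RMS the B to A shares were nearly equal, at 4.65% and 4.85%, and with a minimum of 1 they were in the opposite order, at 0.360% and 0.106%.

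The A share of the ends was 51.9% at 15 min against 45.8% in untreated cells. This order turned with the scale: the shares were 44.8% and 45.8% on quantile-normalized scores, and 55.5% and 58.7% with scores centred on the chromosome median. PC1 rose in 43.7% of the end bins and in 38.6% of the other bins. The mean change of PC1 was 0.00936 at the ends and -0.000269 in the other bins, with 10 ends rising and 9 falling (-0.163 to 0.164). Chromosomes 5, 17 and 10 had the largest relative rises (0.169, 0.159 and 0.146). Chromosomes 9, 8 and 19 had the largest relative falls (-0.170, -0.151 and -0.136). The relative change of all ends, 0.00963, was 0.000240 without chromosome 5 and -0.0336 on quantile-normalized scores, so it has no direction that holds.

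On chromosome 10, 6650001 to 6850000 (200 kb) was the longest stretch that entered A at 15 min. Its PC1 was -0.660 in progenitors, -0.268 in untreated cells, 0.773 after 15 min and -0.188 after 30 min, so it was back below zero at 30 min. Also on chromosome 10, 4575001 to 4700000 had -0.372, -0.25, 0.469 and 0.387 and was in A at both times. On chromosome 5, 5875001 to 6000000 had -0.369, -0.211, 0.383 and -0.375. The 1 stretch that left A was on chromosome 13, 6950001 to 7025000, with -0.172, 0.339, -0.342 and -0.357.

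After 30 min, 116 end bins in 22 runs (3.21%) had gone from B to A, against 2.57% of the other bins and 2.59% of all autosomal bins. Chromosome 4 supplied 39 of them, and without it the share was 2.26%, 0.315 percentage points below that of the other bins. From A to B went 26 bins in 7 runs (0.720%), beside 0.812% of the other bins and 0.808% of all. Chromosome 9 held 12 of these, and the share without it was 0.410%. On quantile-normalized scores the ends had 1.83% into A and 1.14% out of it. With median centring they had 0.249% and 0.443%, so losses exceeded gains, and the other bins had 0.872% into A.

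The mean change from untreated cells was 0.0198 at the ends, with 10 chromosomes up and 9 down (-0.216 to 0.296). Chromosome 18 rose most relative to its other bins (0.314), followed by chromosome 4 (0.20) and chromosome 11 (0.177). Chromosomes 13, 19 and 3 fell most (-0.227, -0.146 and -0.121). The relative change of all ends, 0.0198, was 0.00296 without chromosome 18 and -0.0105 on quantile-normalized scores.

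At 30 min, chromosome 4 had the longest new A stretch, 7225001 to 7775000 (550 kb), nearly all of the stretch lost in differentiation, with 0.826 in progenitors, -0.261 in untreated cells, -0.0565 after 15 min and 0.597 after 30 min. Further towards the centromere on the same chromosome, 4150001 to 4450000 had -0.257, -0.282, 0.172 and 0.523. On chromosome 18, 7525001 to 7800000 had 0.00633, -0.283, 0.185 and 0.587. Their signs in untreated cells and at 30 min follow from the choice. At 15 min, which the choice did not use, 2 of the 3 were above zero. Of all end bins in B in untreated cells and A at 30 min, most were in A at 15 min too. These were 66 in A and 79 in B in progenitors, beside 35 and 16 in B at 15 min. In the other bins the same counts were 2178 and 796, beside 421 and 563. Most were in A at 15 min there too, so this is not particular to the ends.

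Stretches that left A at 30 min were shorter. On chromosome 7, 7050001 to 7175000 had -0.242 in progenitors, 0.382 in untreated cells, 0.0921 after 15 min and -0.308 after 30 min. On chromosome 9, 4275001 to 4400000 had -0.228, 0.322, 0.0308 and -0.358, and on chromosome 13, 6925001 to 7025000 had -0.0561, 0.449, -0.227 and -0.323. Their signs in untreated cells and at 30 min follow from how they were chosen. In progenitors, which the choice did not use, all 3 were below zero. Of all end bins in A in untreated cells and B at 30 min, most were in B in progenitors too. These were 39 in A and 14 in B at 15 min, beside 8 and 1 in A in progenitors. In the other bins the same counts were 889 and 459, beside 445 and 62, so most were in B in progenitors there too. All these bins were chosen for an untreated score above zero, so a lower progenitor score is no separate check.

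Between the activated tracks, 22 end bins in 2 runs (0.609%) joined A and 32 in 10 runs (0.886%) left it. The other bins gave 0.497% and 1.65%, and all autosomal bins 0.501% and 1.62%. The runs from B to A were chromosome 4, 7325001 to 7725000, at -0.115 and 0.587, and chromosome 1, 3175001 to 3325000, at -0.262 and 0.352. Without chromosome 4 the share was 0.176%. Of the stretches that left A, 6650001 to 6825000 of chromosome 10 had 0.872 at 15 min and -0.155 at 30 min. Those of chromosome 5 had 0.354 and -0.364 (5850001 to 6000000) and 0.293 and -0.369 (6500001 to 6575000). The relative change of mean PC1 was largest upwards on chromosomes 18, 4 and 12 (0.177, 0.111 and 0.0965) and downwards on chromosomes 13, 10 and 5 (-0.242, -0.125 and -0.112).

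**Figure D4:**
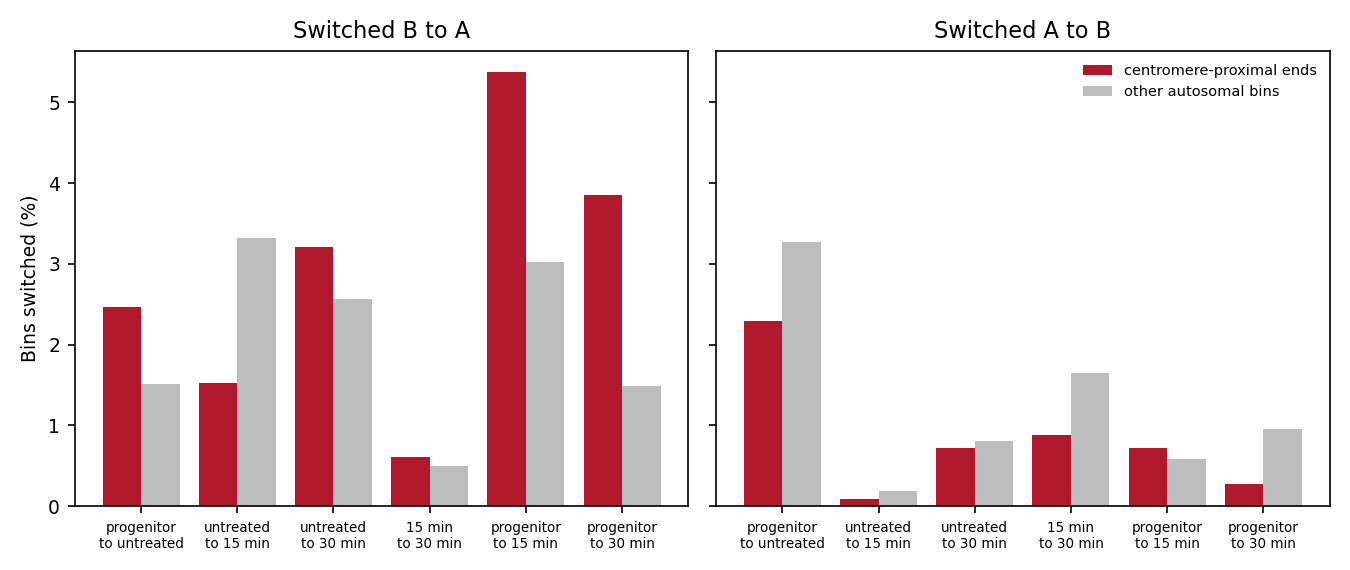
Percent of bins that switched from B to A (left) and from A to B (right) in 6 comparisons, at the centromere-proximal ends (3611 bins, dark) and in the other autosomal bins (91189 bins, grey). For B to A the ends stand above the grey bars in every comparison except untreated to 15 min, and by most in those that start from progenitors. For A to B they stand below in every comparison except progenitors to 15 min.

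Set directly against progenitors, which leaves the untreated track out, activated cells had more of the ends in A on the deposited scores. At 15 min 194 end bins (5.37%) were in A in place of B, against 3.02% of the other bins and 3.11% of all autosomal bins. At 30 min these were 139 end bins (3.85%), against 1.48% of the other bins and 1.57% of all. In the opposite direction were 26 bins (0.720%) at 15 min, beside 0.586% of the others and 0.591% of all, and 10 bins (0.277%) at 30 min, beside 0.95% and 0.924%. Of the 26 bins, 16 were on chromosome 4, and without it the share was 0.293%, a difference from the other bins of -0.279 percentage points. Of the 10 bins, 8 were on chromosome 2, and without it the share was 0.0586%. The B to A excess over the other bins, 2.35 and 2.37 percentage points, stayed above 0 without any 1 chromosome (at least 1.55 and 1.58). On quantile-normalized scores the B to A shares were smaller, at 2.30% against 1.22% of the other bins at 15 min and 2.44% against 0.855% at 30 min. With median centring they were 1.47% against 0.900% and 1.33% against 0.652%. The A share of the ends was then 55.9% in progenitors, 55.5% at 15 min and 57.1% at 30 min, so it was not higher at 15 min.

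Mean PC1 at 30 min was above that of progenitors on 14 of 19 chromosomes, by a median of 0.0895 (range -0.138 to 0.292). Among windows of 5 Mb on the same chromosome, the end lay at a median percentile of 87.0 for this change, the highest of the comparisons. The percentile was 72.2 from progenitors to untreated cells and 65.8 from progenitors to 15 min. In the comparisons without progenitors it was 51.4 to 62.5. The mean change was 0.0839 at the ends and -0.00231 in the other bins at 30 min, and 0.0735 and -0.00250 at 15 min. Sequencing batch and the re-analysis label also differ between progenitors and activated cells, so neither can be separated from the state of the cells.

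The longest stretches that gained A against progenitors were also taken by length, a choice made after their values were seen. Chromosome 10, 6400001 to 6850000 (450 kb), had -0.544 in progenitors, -0.0985 in untreated cells, 0.960 after 15 min and -0.0496 after 30 min. Chromosome 18, 3750001 to 4175000 (425 kb), had -0.537, 0.101, 0.309 and 0.522, a rise through all 4 tracks. Chromosome 4, 4100001 to 4450000 (350 kb), had -0.245, -0.216, 0.196 and 0.558. The stretch of chromosome 9 named above for differentiation, 7225001 to 7550000, was also among them. In the opposite direction the longest was chromosome 4, 7325001 to 7725000 (400 kb), in A in progenitors (0.857) and in B at 15 min (-0.115), and again in A at 30 min (0.587).

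Read by sign alone across the 4 tracks, most bins of the ends kept their compartment. Of the 3611 bins, 1458 (40.4%) were in A throughout and 1635 (45.3%) in B throughout, and 518 (14.3%) changed at least once, against 11.7% of the other bins. The most frequent changing pattern was B in progenitors and A in all 3 neutrophil tracks, with 131 bins (3.63%) on 17 chromosomes, against 1.56% of the other bins. Bins in A in the activated tracks alone came to 79 (2.19%) on 14 chromosomes, against 0.873%. Bins in A at 15 min alone came to 81 (2.24%), against 1.90%. The pattern of B in untreated neutrophils alone held 66 bins (1.83%) on 7 chromosomes, against 2.39%.

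Chromosomes 4, 10 and 18 show these courses at full length; they were chosen to be drawn after their values were seen. On chromosome 4 the stretches that changed lie on either side of a B domain from 4775001 to 6075000, which had -0.836 in progenitors, -0.765 in untreated cells, -0.635 after 15 min and -0.772 after 30 min. On chromosome 10 the 15 min track stood above the rest between 6400001 and 6850000. On the A domain beyond it, from 7275001 to 8025000, the untreated track was highest (1.04, 1.41, 1.08 and 1.07 in the same order). On chromosome 18 the untreated B domain from 4500001 to 4650000 had -0.131 in progenitors, -0.163 in untreated cells, 0.286 after 15 min and 0.482 after 30 min. The untreated B domain from 6575001 to 6675000 had 0.258, -0.116, 0.376 and 0.590, so both were in A at both times.

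**Figure D5:**
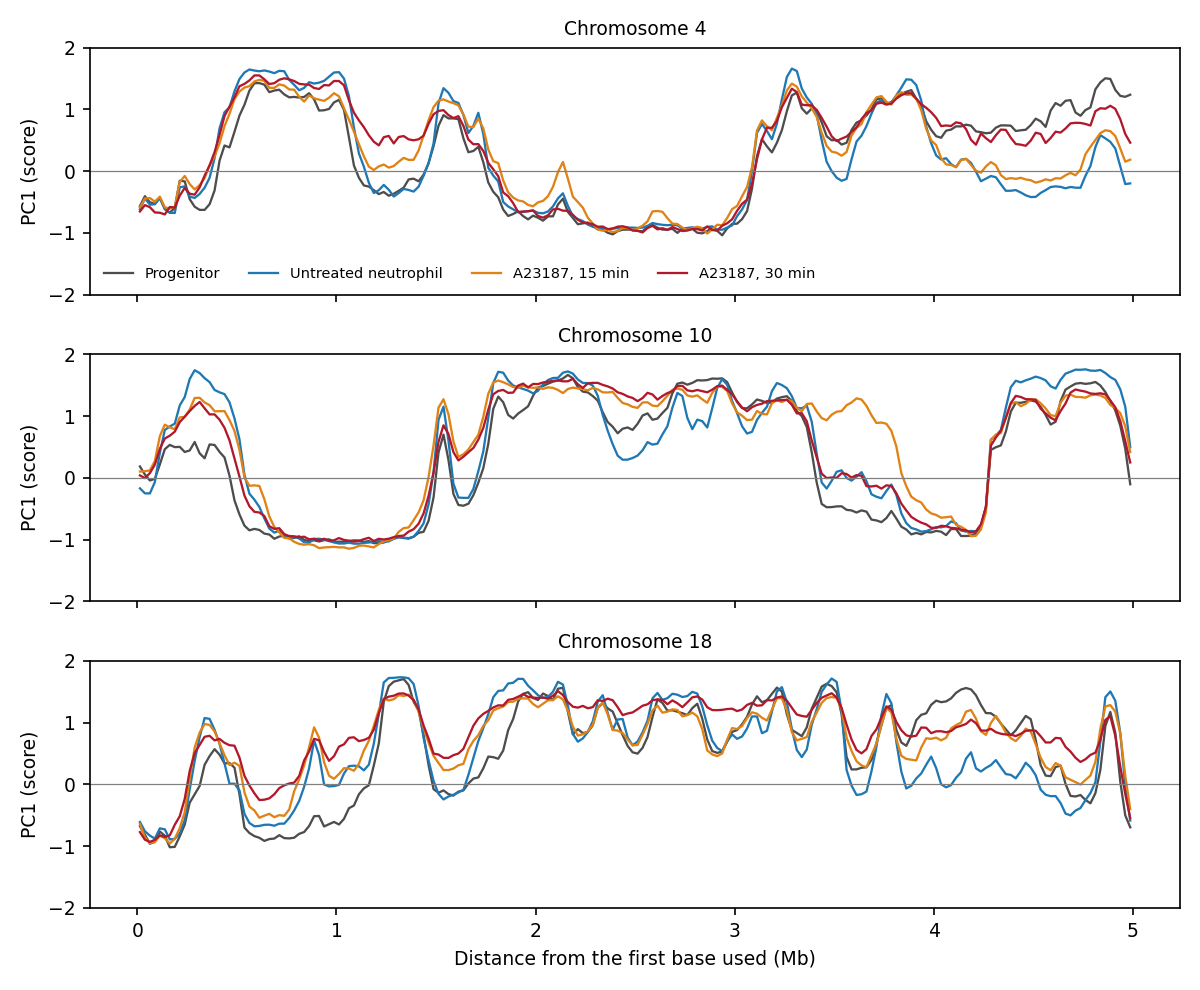
PC1 (score without a unit) of every 25 kb bin over the centromere-proximal ends of chromosomes 4, 10 and 18 in the 4 tracks, with the distance counted in Mb from position 3 Mb. On chromosome 4 the progenitor and 30 min lines run above zero over the stretch that left A in differentiation (means of 0.819 and 0.590), where the untreated line lies below it (-0.25).

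Correlations with the progenitor track were lower at the ends than elsewhere. Pearson r over the end bins, which share one chromosome scale and overlapping reads, was 0.927 between progenitors and untreated neutrophils, 0.931 with 15 min and 0.952 with 30 min. In the other bins these were 0.945, 0.958 and 0.972. From untreated cells r was 0.963 with 15 min and 0.949 with 30 min at the ends, and 0.962 and 0.955 elsewhere. By chromosome, r between progenitors and untreated neutrophils went from 0.788 to 0.995.

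The opposite ends of the same chromosomes, their last 5 Mb (3776 bins), differed from the centromere-proximal ends in the order of the tracks. Their mean PC1 was highest in progenitors (0.253), with 0.175 in untreated cells, 0.143 after 15 min and 0.196 after 30 min. In differentiation 1.09% of the distal bins joined A and 5.83% left it, beside 2.46% and 2.30% at the centromere-proximal ends. At 15 min 3.47% of the distal bins entered A, beside 1.52%, and at 30 min 3.63%, beside 3.21%. With 1 track per group these differences were not tested.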

How the data were processed

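In situ Hi-C libraries, 17 of the 165 samples, underlie the 6 deposited tables, and the other 148 samples were not analysed here. Per the submitters' processing notes, the authors used HiC-Pro, Bowtie2 and HOMER on mm9 to make the scores (PC1). Tool versions were not given in the sources used here. Progenitor and untreated scores are pools of libraries marked as a re-analysis, per the labels. Deposited scores are spaced at 25 kb with windows of 50 kb in the file titles, so neighbours share reads. The deposited domain lists give a mean score and a length per domain, which matched the untreated track.

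From these, means, shares and switch calls were computed with Python 3.11.15, numpy 2.4.6 and pandas 2.3.3. Switches were called on all 100644 bins. The rule was tried on simulated tracks whose changes were larger and longer than many of the runs called here. Short runs with small changes were not covered by that trial. Domain overlap needed any shared base. Depth is unknown. Regions named are the 3 longest runs per direction, and chromosomes the 3 highest and lowest. Ends, rules and lists were chosen with earlier results of these data known. Alternatives changed the window, bins, scale, size and run limits, weights and chromosomes. No annotation of mm9 was used, so genes are not named, and no sequence is shown. Coordinates are 1-based.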

Additional observations from a re-analysis of the deposited data

Results flagged for a closer look

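Among the 19 ends and the 21 named regions, 4 ends and 4 regions had changes from the untreated track of opposite sign at 15 and at 30 min. Each time has 1 track, so none of these differences was tested, and the regions between 15 and 30 min were chosen for their change of sign. Values are the 30 min change minus the 15 min change in mean PC1. The end of chromosome 13 had changes of 0.0151 (15 min) and -0.216 (30 min), which differ by -0.231. The other ends differed by 0.0566 (chromosome 1), -0.0582 (chromosome 2) and 0.0933 (chromosome 12). The smaller of their changes was -0.00815 at 15 min (chromosome 1), -0.0189 at 30 min (chromosome 2) and 0.026 at 30 min (chromosome 12). On chromosome 5 the difference was -0.718 over 5850001 to 6000000, -0.758 over 5875001 to 6000000 and -0.662 over 6500001 to 6575000. The stretch from 6500001 hardly changed at 30 min (-0.0209). The runs from 5850001 and from 5875001 overlap and are 1 stretch called in separate comparisons. The 4 regions, and the 21 named, are therefore not all separate. On chromosome 1 it was 0.615 over 3175001 to 3325000, with changes of -0.00443 (15 min) and 0.610 (30 min).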

How the results depend on the processing

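No paired analysis was possible because each group has 1 track. Of 426 values under alternatives other than leaving out a chromosome, 277 kept direction and size, 127 moved and 22 changed sign. Leaving out each chromosome in turn gave 626, 90 and 6 of 722. The 277 include the setting that kept bins listed at 0, which changed nothing (untreated A share 45.8% with it and without it). No bin was listed at 0. A shares and switch shares of the ends are never negative, so only differences were open to a change of sign. These counts are therefore no measure of how robust the results are. The cause of each shift was not tested. Depth is unknown, windows overlap, and no value has a replicate check.

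Values are ends minus other bins for PC1, percent of end bins for A shares and switches, and percentage points for differences in switch share. Tracks are in the order progenitor, untreated, 15 min, 30 min. With ends of 3 to 6 Mb, PC1 was 0.163, 0.255, 0.257 and 0.264 and the A share 50.4, 52.8, 57.9 and 55.4. In differentiation A to B was 1.29. From untreated to 15 min the PC1 change was 0.00183 and A to B 0. To 30 min the change was 0.00923 and B to A 1.75 (difference -0.863). From 15 to 30 min B to A was 0.276 (-0.23), and from progenitors to 15 min the A to B difference was -0.228. With ends of 3 to 13 Mb, PC1 was -0.109, -0.0521, -0.042 and -0.0295 and the A share 39.4, 40.1, 45.7 and 43.4. Untreated to 15 min A to B was 0.193 (0.00675), and progenitor to 15 min A to B differed by -0.222. With ends of 4 to 8 Mb, PC1 was -0.00947, 0.043, 0.0601 and 0.0687, the A share 44.2 untreated and 47.8 at 30 min, and the 15 min change 0.0171. With all chromosomes weighted alike, progenitor PC1 was 0.00582. With every second bin, B to A was 1.61 in differentiation and 0.997 at 15 min, and the 30 min A to B difference 0.0412.

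On scores quantile-normalized to the untreated track, the A share was 44.8 at 15 min and 46.5 at 30 min. The 15 min change was -0.0336, with B to A 0.554 and A to B 0.554. The 30 min change was -0.0105, with 1.83 and 1.14. Between the times the change was 0.0232, B to A 1.58 and the A to B difference 0.0544. With scores centred on the chromosome median, the A share was 55.9, 58.7, 55.5 and 57.1 and differentiation A to B 0.914. The 15 min change was 0.00232, B to A 0 and A to B 0.222. The 30 min change was 0.0109, B to A 0.249 (-0.623) and A to B 0.443. Between the times the B to A difference was -0.428 and A to B 0.111, and progenitor to 15 min A to B differed by -0.455.

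With a minimum change of 0.25 RMS, differentiation A to B was 3.46, 15 min B to A 4.65 and A to B 0.138. Between the times the B to A difference was -0.0509 and A to B 2.08. With 1 RMS, differentiation gave 0.471 and 0.775. At 15 min B to A was 0.36 (0.254) and A to B 0, at 30 min 0.222 (-0.255) and 0, and between the times 0 (-0.0855) and 0.111. With runs of 4 bins, differentiation B to A was 1.14, 15 min A to B 0, the 30 min A to B difference 0.085 and A to B between the times 0.36.

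Without 1 chromosome at a time, PC1 ran from -0.0355 to 0.0657 in progenitors, 0.029 to 0.123 untreated, 0.0464 to 0.143 at 15 min and 0.0577 to 0.15 at 30 min. The lowest values were without chromosome 19 and the highest without chromosome 9. The A share ran from 42.3 to 46.9, 43.4 to 47.6, 49.8 to 54.0 and 47.1 to 51.7. The PC1 change ran from 0.046 to 0.0802 in differentiation, 0.00024 to 0.0201 at 15 min, 0.00296 to 0.0342 at 30 min and 0.000646 to 0.0249 between the times. B to A ran from 2.08 to 2.61, 1.08 to 1.61, 2.26 to 3.40 and 0.176 to 0.645 in these comparisons. A to B ran from 1.61 to 2.43, 0 to 0.088, 0.41 to 0.762 and 0.616 to 0.938. From progenitors to 15 min A to B was 0.293 without chromosome 4, and to 30 min 0.0586 without chromosome 2.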
